A study of Mus musculus with 16 samples.

Results

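The Slc38 genes encode the sodium-coupled neutral amino acid transporters (SNATs) and their relatives. The members described here are the 10 genes Slc38a1, Slc38a2, Slc38a3, Slc38a4, Slc38a5, Slc38a6, Slc38a7, Slc38a9, Slc38a10 and Slc38a11, chosen by gene symbol, of 19938 genes measured through a row with 1 gene symbol. They were followed in N25/2 cells, an immortalized line from embryonic mouse hypothalamus, on Affymetrix whole-transcript arrays. Deprived cells were kept in medium lacking amino acids and control cells in medium with them, and both were taken after 1, 2, 3, 5 and 16 h. There were 4 deprived and 4 control arrays at 5 h and 1 deprived and 1 control array at each other time, 16 in all. All groups are of the same line, grown with fetal bovine serum before treatment; whether the treatment media held serum is not given in the sources used here. Nothing in the labels says that the 5 h samples came from separate cultures. The p-values at 5 h, and in part those over all 16 arrays, thus rest on a spread that may be only technical.

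SNATs move glutamine, alanine, serine and other small neutral amino acids. System A members (Slc38a1, Slc38a2, Slc38a4) carry them into cells with sodium, while system N members (Slc38a3, Slc38a5) exchange protons as well and can run in either direction. Slc38a7 and Slc38a9 sit on the lysosome, where Slc38a7 exports glutamine and asparagine and Slc38a9 reports arginine to the Ragulator and Rag proteins that control mTORC1. In brain, these carriers are known for supplying neurons with glutamine for transmitter synthesis, and Slc38a2 is a known target of the amino acid response in cultured mammalian cells.

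Levels are the authors' log2 values after robust multi-array averaging (RMA), and differences are deprived minus control on that log2 scale. Array medians lay between 7.02 and 7.12. The 2 arrays numbered 4 at 5 h stood apart from the other arrays of their groups. Their root mean square distance to the mean of the group's other arrays was 0.36 (deprived) and 0.38 (control), against 0.15 to 0.23 for the other 6 arrays. The members' differences at 5 h are therefore also given without them. As a rough guide, since signals of different probes cannot be set against each other, 2 of 12 neuron markers (Map2 and Stmn2), 4 of 13 hypothalamic markers (Sim1, Otp, Hmx2 and Oxt), 4 of 13 glia and progenitor markers (Sox2, Nes, Vim and Cx3cr1) and 8 of 10 mesenchymal markers had a mean signal above the median gene. The other neuron markers (among them Rbfox3, Snap25, Syt1 and Tubb3) and the other hypothalamic markers (among them Nkx2-1 and Pomc) lay below it. Nes, an intermediate filament of neural progenitors, was the marker that passed the test at 5 h, at 9.96 ± 0.10 in deprived and 10.66 ± 0.22 in control arrays (SD, n = 4 each), a difference of -0.69 (SE 0.12, limma adjusted p = 0.00923). The mean over the 10 mesenchymal markers was 9.22 to 9.28 in deprived and 9.31 to 9.57 in control arrays. For the 12 neuron markers it was 6.72 to 6.86 in deprived and 6.74 to 6.96 in control arrays, for the 13 hypothalamic markers 6.82 to 7.13 in deprived and 6.83 to 7.19 in control arrays, and for the 13 glia and progenitor markers 7.53 to 7.69 in deprived and 7.61 to 7.77 in control arrays. The part of these markers in the results below was not tested.

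At 5 h, 3 of the 10 Slc38 genes rose in deprived cells and none fell. They were the system A carriers Slc38a1 and Slc38a2 and the lysosomal carrier Slc38a7. Over all genes, 2.41% passed the same test (limma, Benjamini-Hochberg adjusted p below 0.05) as higher and 1.70% as lower; leaving out 1 array took these shares to between 1.25% (without deprived array 1) and 3.13% (without control array 4) higher, and between 0.662% (without deprived array 1 or 2) and 2.22% (without control array 4) lower. The other 7 members differed by -0.19 to 0.16, and 3 of them (Slc38a9 as higher, Slc38a4 and Slc38a6 as lower) passed when arrays were weighted, a fit that called 27.5% of all genes. Without both arrays numbered 4, the same 3 members were called as in the full set, beside 6.34% of all genes as higher and 7.17% as lower, and with sample number as a block these 3 were called beside 8.22% of all genes as higher and 1993 of the 19938 genes as lower. The median difference was 0.04 over the 10 members and -0.01 over all genes. In the 3 genes that rose, the 4 deprived arrays all lay above the 4 control arrays, as they did in 5.15% of all genes; the deprived arrays all lay below in 5.38% of all genes and in no member. The mean signal was above that of the median gene for 6 members, and below it for Slc38a3, Slc38a4, Slc38a5 and Slc38a11.

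**Figure D1:**
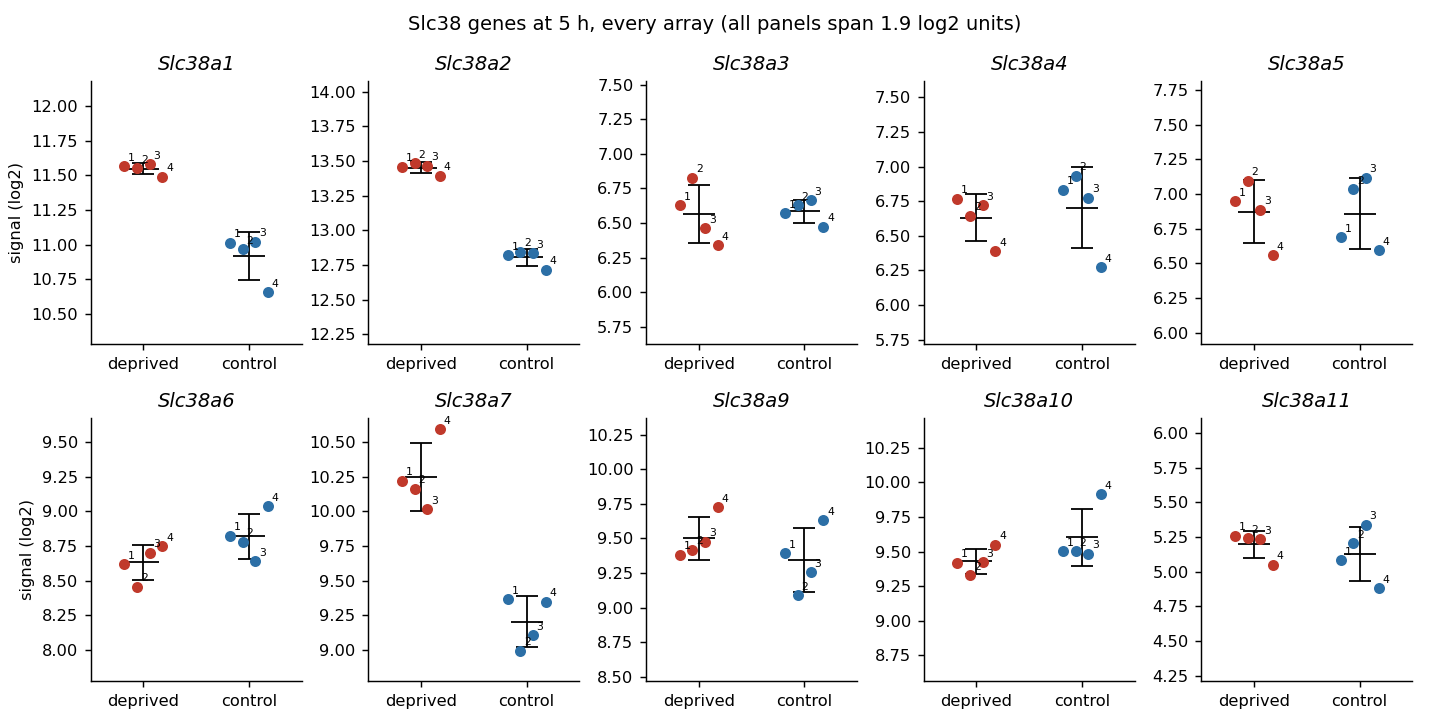
Signal of each Slc38 gene (log2, vertical axis) in the 4 deprived arrays (red, left) and 4 control arrays (blue, right) at 5 h; small digits are sample numbers, and black bars show the mean ± SD. Deprived and control points are apart for Slc38a1, Slc38a2 and Slc38a7 and overlap for the other 7 genes, and all panels span the same height.

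Slc38a2 (SNAT2, Entrez 67760, array row 10431894) is the system A carrier expressed in most cell types. At 5 h its level was 13.46, 13.48, 13.47 and 13.39 in deprived arrays 1 to 4, against 12.82, 12.85, 12.83 and 12.71 in control arrays 1 to 4. The groups were far apart relative to their spread, and array 4 was the lowest of both. The means were 13.45 ± 0.04 in deprived and 12.80 ± 0.06 in control arrays (SD, n = 4 each), a difference of 0.65 (SE 0.07, 95% interval 0.49 to 0.80), or 1.57-fold (limma adjusted p = 0.000926). Within each sample number, the difference was 0.64, 0.64, 0.63 and 0.68. Without both arrays numbered 4 it was 0.64 (adjusted p = 7.4e-05).

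The window around the annotated start of Slc38a2 is shown because this gene differed at the earliest time. It spans chr15:96699679-96699978 of GRCm38.p6 on the minus strand, from 250 bases before to 50 bases after the start, as RefSeq gives it. Of its bases, 73% were G or C. It is printed 5′ to 3′, and no letters are in capitals because none of the motifs described below was found in it. Elements of the gene outside this window were not searched.
Slc38a2: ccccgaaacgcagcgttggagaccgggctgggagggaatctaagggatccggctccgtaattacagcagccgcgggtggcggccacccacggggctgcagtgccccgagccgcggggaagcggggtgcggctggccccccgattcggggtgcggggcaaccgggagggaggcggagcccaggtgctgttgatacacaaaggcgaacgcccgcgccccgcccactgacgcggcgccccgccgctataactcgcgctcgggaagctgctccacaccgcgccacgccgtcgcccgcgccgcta

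Slc38a2 was the member whose difference exceeded the spread of its arrays at every time. Its level was 12.94 in the deprived and 12.71 in the control array at 1 h, 13.38 in the deprived and 12.71 in the control array at 2 h, 13.40 in the deprived and 12.77 in the control array at 3 h, and 13.42 in the deprived and 12.64 in the control array at 16 h. The differences were 0.23, 0.68, 0.63 and 0.78. Single arrays give no test, so each was set against the widest gap between 2 arrays of a 5 h group, which was 0.13 for Slc38a2. All 4 differences exceeded it. A positive difference beyond the gene's own gap at all of these times was seen in 35 genes, 0.176% of all. Between 1 h and 16 h the deprived level moved by 0.48 and the control level by -0.06. The difference at 2 h was already close to that at 5 h, and a change of the difference with time did not pass the test (slope 0.11 per doubling of hours, SE 0.04, limma adjusted p = 0.264).

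Slc38a1 (SNAT1, Entrez 105727, row 10431874) is the system A carrier known in neurons. At 5 h its level was 11.56, 11.55, 11.58 and 11.49 in deprived arrays 1 to 4, against 11.01, 10.97, 11.02 and 10.66 in control arrays 1 to 4. Every deprived array was above every control array, and control array 4 lay well below the other 3. The means were 11.55 ± 0.04 in deprived and 10.91 ± 0.17 in control arrays (SD, n = 4 each), a difference of 0.63 (SE 0.09, 95% interval 0.42 to 0.84), or 1.55-fold (limma adjusted p = 0.00540). Without both arrays numbered 4 it was 0.57 (adjusted p = 0.00018).

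A second array row of Slc38a1 (10431872) also rose at 5 h, with 9.34 ± 0.17 in deprived and 8.46 ± 0.21 in control arrays (SD, n = 4 each), a difference of 0.88 (SE 0.12, limma adjusted p = 0.00417). Both rows showed the same late course. At 1, 2 and 3 h the difference was 0.07, 0.02 and 0.14 in the first row and -0.25, -0.08 and -0.02 in the second, and at 16 h it was 1.22 in the first and 1.52 in the second. In the first row, the level was 11.26 in the deprived and 11.19 in the control array at 1 h, 11.15 in the deprived and 11.13 in the control array at 2 h, 11.19 in the deprived and 11.04 in the control array at 3 h, and 11.87 in the deprived and 10.65 in the control array at 16 h. The 16 h difference was 2.33-fold and exceeded the widest gap within a 5 h group (0.36), while those of 1, 2 and 3 h did not. Both treatments moved: from 1 h to 16 h the deprived level changed by 0.61 and the control level by -0.54.

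Slc38a7 (SNAT7, Entrez 234595, row 10580957) carries glutamine and asparagine out of lysosomes. At 5 h its level was 10.22, 10.16, 10.02 and 10.59 in deprived arrays 1 to 4, against 9.37, 9.00, 9.11 and 9.35 in control arrays 1 to 4. The groups did not overlap, and deprived array 4 was the highest of all. The means were 10.25 ± 0.25 in deprived and 9.20 ± 0.18 in control arrays (SD, n = 4 each), a difference of 1.05 (SE 0.14, 95% interval 0.74 to 1.35), or 2.06-fold (limma adjusted p = 0.00255). Without both arrays numbered 4 it was 0.98 (adjusted p = 8.8e-05).

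The Slc38a7 window is shown for comparison with that of Slc38a2. It spans chr8:95853442-95853741 of GRCm38.p6 on the minus strand, with the same limits around the RefSeq start, and 50.3% of its bases were G or C. Capitals mark an E-box, CACGTG, whose first base lies at position -34 counted from the start.
Slc38a7: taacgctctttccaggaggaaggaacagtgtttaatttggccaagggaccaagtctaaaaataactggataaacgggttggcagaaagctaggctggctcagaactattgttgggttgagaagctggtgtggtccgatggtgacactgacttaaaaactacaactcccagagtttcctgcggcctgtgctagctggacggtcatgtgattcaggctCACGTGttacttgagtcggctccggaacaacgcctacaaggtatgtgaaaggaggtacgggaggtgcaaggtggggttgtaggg

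Slc38a7 differed more at each later time. Its level was 9.74 in the deprived and 9.57 in the control array at 1 h, 9.82 in the deprived and 9.48 in the control array at 2 h, 10.31 in the deprived and 9.59 in the control array at 3 h, and 10.40 in the deprived and 9.02 in the control array at 16 h. The differences were 0.17, 0.34, 0.72 and 1.38, the last being 2.60-fold, and those of 3 h and 16 h exceeded the widest gap within a 5 h group (0.58). From 1 h to 16 h the deprived level changed by 0.66 and the control level by -0.55.

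**Figure D2:**
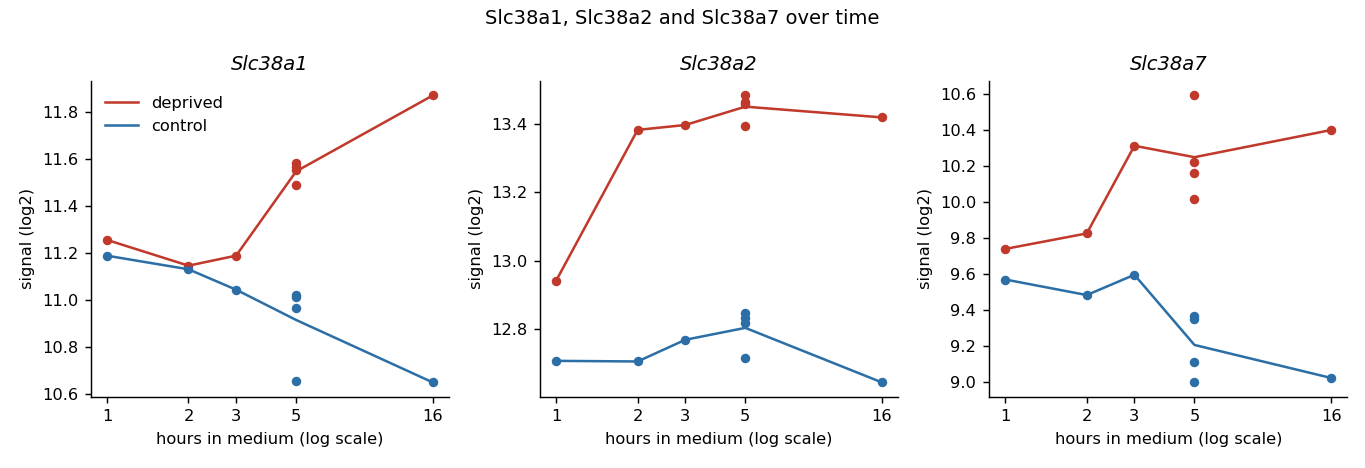
Signal (log2, vertical axis) of Slc38a1, Slc38a2 and Slc38a7 against hours in medium (log scale), deprived in red and control in blue; points are arrays and lines join the means of each time. Slc38a2 was apart at 1 h (0.23) and near its full difference at 2 h (0.68), Slc38a7 widened to 1.38 at 16 h, and Slc38a1 differed by at most 0.14 through 3 h and by 1.22 at 16 h.

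The change of the difference with time was tested over all 16 arrays, as a slope per doubling of hours. It passed for 2 members, Slc38a1 (0.32, SE 0.06, limma adjusted p = 0.0168) and Slc38a7 (0.34, SE 0.08, adjusted p = 0.0425). Over all genes, 1.39% had a difference that grew and 1.07% one that fell with the hours by this test. Both calls were lost without the 16 h arrays, where the slopes were 0.29 for Slc38a1 (adjusted p = 0.297) and 0.41 for Slc38a7 (adjusted p = 0.227). No member passed in that fit, which called 34 genes, 0.171% of all. Slc38a7 also missed the threshold with each array centred on its median (adjusted p = 0.0714) and with hours on a linear scale (adjusted p = 0.141). The centred fit called 1.86% of all genes and the linear fit 5.15%. The slopes of the 3 genes were not tested against each other. The spread in the trend fit over 16 arrays came from the 5 h arrays and from departures of the differences from a straight line.

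The mean difference over 1, 2, 3 and 16 h, from the 8 arrays that the 5 h test did not use, was 0.58 for Slc38a2 (SE 0.10, limma adjusted p = 0.492), 0.65 for Slc38a7 (adjusted p = 0.762) and 0.36 for Slc38a1 (adjusted p = 0.808). No member passed, nor did any gene (0% of all). With 1 array per group and time, the spread in this fit came from how much a gene's difference varied between times. At an unadjusted p below 0.05 in limma stood 3 members, Slc38a2, Slc38a7 and Slc38a6 (-0.21), of 1244 genes in all, or 6.24%. Without the 16 h arrays, limma called 35 genes and no member, and the mean was 0.51 for Slc38a2 (adjusted p = 0.0756), 0.41 for Slc38a7 (adjusted p = 0.172) and 0.08 for Slc38a1 (adjusted p = 0.755).

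Counted over the 10 members, differences beyond the gene's own widest gap within a 5 h group numbered 1, 1, 2 and 4 after 1, 2, 3 and 16 h. The share of all genes past the same mark was 4.87%, 5.73%, 6.93% and 24.2% after the same hours. The member past it was Slc38a2 in the first 2 of these times, joined by Slc38a7 at 3 h. At 16 h the members were Slc38a1, Slc38a2, Slc38a7 and, in the other direction, Slc38a10. A 2-fold difference was reached by no member at 1, 2 or 3 h and by 2 at 16 h (Slc38a1 and Slc38a7), against 0.125%, 0.181%, 0.135% and 4.93% of all genes at 1, 2, 3 and 16 h.

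**Figure D3:**
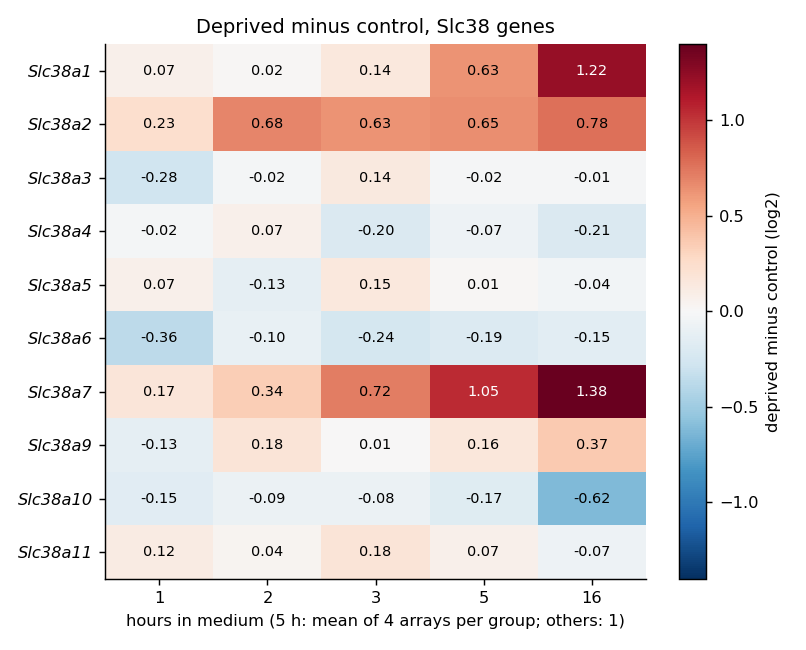
Deprived minus control (log2, colour and printed value) for the 10 Slc38 genes at each time; the 5 h column is a difference of means of 4 arrays each and the others are differences of single arrays. Slc38a2 is positive by 0.63 or more from 2 h on, Slc38a7 passes 1 at 5 h and Slc38a1 at 16 h, and the lowest value is that of Slc38a10 at 16 h (-0.62).

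Slc38a4 (SNAT4), the third system A carrier, is known mainly from liver and placenta. At 5 h its level was 6.77, 6.65, 6.72 and 6.39 in deprived arrays 1 to 4, against 6.83, 6.93, 6.77 and 6.28 in control arrays 1 to 4, and the groups overlapped. The difference was -0.07 (95% interval -0.40 to 0.26), or -0.14 without both arrays numbered 4, and leaving out control array 4 gave -0.22; none of these passed. Slc38a4 lies next to the 2 carriers that rose: on chromosome 15, RefSeq lists Slc38a1, Slc38a2 and Slc38a4 in this order with no other protein-coding gene between them. The 3 annotated genes between Slc38a1 and Slc38a2 and the 4 between Slc38a2 and Slc38a4 are long noncoding RNAs, pseudogenes and a small nuclear RNA, none measured by a named row. At single times Slc38a4 differed by -0.21 to 0.07.

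The system N carriers were not called. Slc38a3 (SNAT3), known from astrocytes, liver and kidney, had 6.63, 6.83, 6.47 and 6.34 in deprived arrays 1 to 4, against 6.57, 6.63, 6.67 and 6.47 in control arrays 1 to 4, a difference of -0.02 (95% interval -0.26 to 0.23), or 0.02 without both arrays numbered 4. Slc38a5 (SNAT5) had 6.95, 7.10, 6.89 and 6.56 in deprived arrays 1 to 4, against 6.69, 7.04, 7.12 and 6.59 in control arrays 1 to 4, a difference of 0.01 (95% interval -0.32 to 0.35), or 0.03 without both arrays numbered 4. For Slc38a3 the control arrays lay within the range of the deprived arrays, and for Slc38a5 the groups overlapped over most of their range. At single times Slc38a3 differed by -0.28 to 0.14 and Slc38a5 by -0.13 to 0.15.

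Slc38a5 shares the E-box letters with Slc38a7, and its window is shown for that reason. It spans chrX:8271131-8271430 of GRCm38.p6 on the plus strand, and the first base of the capitals lies at position -30.
Slc38a5: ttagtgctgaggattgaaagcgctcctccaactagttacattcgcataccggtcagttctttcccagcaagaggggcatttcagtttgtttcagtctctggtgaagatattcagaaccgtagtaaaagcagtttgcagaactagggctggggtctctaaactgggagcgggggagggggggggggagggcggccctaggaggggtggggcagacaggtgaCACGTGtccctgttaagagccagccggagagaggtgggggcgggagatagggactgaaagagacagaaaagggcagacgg

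Slc38a9, the lysosomal arginine sensor, was not called either. Its level at 5 h was 9.38, 9.42, 9.48 and 9.72 in deprived arrays 1 to 4, against 9.39, 9.09, 9.26 and 9.63 in control arrays 1 to 4. In both groups array 4 was the highest, and the groups overlapped. The difference was 0.16 (95% interval -0.13 to 0.44), or 0.18 without both arrays numbered 4, and leaving out 1 array at a time gave 0.07 (without control array 2) to 0.25 (without control array 4). A second row of Slc38a9 gave 7.65 ± 0.23 in deprived and 7.73 ± 0.10 in control arrays (SD, n = 4 each), a difference of -0.08 (SE 0.12, limma adjusted p = 0.991), so the 2 rows disagreed in sign. At single times the first row differed by -0.13 to 0.37, the highest being at 16 h.

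Slc38a10 (SNAT10) carries glutamine, glutamate and aspartate. At 5 h its level was 9.42, 9.33, 9.42 and 9.55 in deprived arrays 1 to 4, against 9.50, 9.50, 9.49 and 9.91 in control arrays 1 to 4. Of the deprived arrays, the highest was the array numbered 4, which lay above 3 of the 4 control arrays. The difference was -0.17 (95% interval -0.42 to 0.07), or -0.11 without both arrays numbered 4, and leaving out control array 4 gave -0.07. At 1, 2 and 3 h the differences were -0.15, -0.09 and -0.08, each within the gene's widest gap of 0.43. At 16 h the level was 8.94 in the deprived and 9.57 in the control array, a difference of -0.62 beyond that gap, with no test.

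Slc38a6 (SNAT6) and Slc38a11 are less studied. Slc38a6 had 8.62, 8.46, 8.70 and 8.75 in deprived arrays 1 to 4, against 8.82, 8.78, 8.64 and 9.04 in control arrays 1 to 4, a difference of -0.19 (95% interval -0.42 to 0.04), or -0.16 without both arrays numbered 4, and leaving out control array 4 gave -0.12. Like Slc38a10, Slc38a6 was lower in deprived cells at all 5 times. Its single-time differences were -0.36 to -0.10, each within its widest gap of 0.40. The share of all genes that were lower at all 5 times is not given here. Slc38a11 had 5.26, 5.24, 5.23 and 5.05 in deprived arrays 1 to 4, against 5.08, 5.21, 5.34 and 4.88 in control arrays 1 to 4, a difference of 0.07 (95% interval -0.17 to 0.31), or 0.04 without both arrays numbered 4. It had a low signal throughout, and its single-time differences ran from -0.07 to 0.18.

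RefSeq windows from 250 bases before to 50 bases after a start were at hand for 8 of the 10 members, 10 windows in all, 3 of them of Slc38a4. Slc38a1 and Slc38a3 had no entry. These motifs were searched on both strands, with no overlap between their matches in the member windows. TGATGNAA, the core of the C/EBP-ATF response element through which ATF4 acts, was in none of the 10 windows and in 3.97% of 32851 windows of the same length over all genes. TGACGTCA, the cAMP response element, was in 1 (Slc38a6, first base at position -121) and in 1.79% of all windows. CACGTG, an E-box that transcription factors of lysosomal genes can bind, was in 2 (Slc38a7 and Slc38a5) and in 7.15% of all windows. Of the 2 genes with the E-box letters, Slc38a7 rose and Slc38a5 differed by 0.01 at 5 h. A match is a description of letters and not a site, and elements outside these windows were not searched.

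Other gene groups at 5 h place the members beside their pathway. These lists were chosen with earlier results of these data known. Of all genes, 2.41% passed the 5 h test as higher and 1.70% as lower. With sample number as a block, 8.22% of all genes were called higher and 1993 of the 19938 lower. Without both arrays numbered 4, 6.34% were called higher and 7.17% lower. Of 41 other amino acid transporters, 8 rose and none fell, with a median difference of 0.03 and a range of -0.78 to 3.21. The genes that moved most were Slc7a11, the cystine and glutamate exchanger (3.21, SE 0.32, limma adjusted p = 0.000593), the glycine carrier Slc6a9 (1.77, SE 0.22, adjusted p = 0.00199), the cationic amino acid carrier Slc7a1 (1.75, SE 0.25, adjusted p = 0.00430) and the neutral amino acid carrier Slc1a4 (1.19, SE 0.07, adjusted p = 6.37e-05). With sample number as a block, 13 rose and 1 fell, and without both arrays numbered 4, 12 rose and 1 fell.

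Of 23 amino acid response genes, 22 rose and none fell, beside 2.41% of all genes as higher and 1.70% as lower. Their median difference was 1.37. The largest changes were those of the pseudokinase Trib3 (2.52, SE 0.12, limma adjusted p = 1.74e-05), the cysteine-making enzyme Cth (2.23, SE 0.15, adjusted p = 0.000104), the glutathione-degrading enzyme Chac1 (2.12, SE 0.10, adjusted p = 1.80e-05) and the alanine aminotransferase Gpt2 (2.10, SE 0.09, adjusted p = 1.74e-05). The smallest difference in that list was 0.61, close to those of Slc38a1 and Slc38a2.

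Of 28 measured genes in the list of Ragulator, Rag and GATOR genes, 6 rose and 2 fell, with a median difference of -0.03. Of all genes, 2.41% were called higher and 1.70% lower. The list holds partners of Slc38a9 at the lysosome and also regulators such as sestrins, CASTORs, folliculin and its partners. Of the Ragulator and Rag genes, Rragc (0.64, SE 0.11, limma adjusted p = 0.0113) and Lamtor3 (0.41, SE 0.09, adjusted p = 0.0425) rose. No GATOR subunit passed in this fit. Sesn2, a leucine-binding inhibitor of GATOR2, rose by 1.85 (SE 0.13, limma adjusted p = 0.000133) and Fnip1, a partner of folliculin, rose by 0.83 (SE 0.08, adjusted p = 0.000418). Sesn2 is also in the list of amino acid response genes. Castor2, a relative of the arginine sensor Castor1, fell by 1.02 (SE 0.15, adjusted p = 0.00508) and Sesn1 fell by 0.73 (SE 0.16, adjusted p = 0.0377). With sample number as a block, 8 rose and 6 fell, beside 8.22% of all genes as higher and 1993 of the 19938 genes as lower. Without both arrays numbered 4, 6 rose and 5 fell, beside 6.34% of all genes as higher and 7.17% as lower.

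Of 19 measured enzymes of glutamine and glutamate metabolism, 5 rose and none fell, beside 2.41% of all genes as higher and 1.70% as lower. Their median difference was 0.00. Besides Gpt2, these included the aspartate aminotransferase Got1 (1.20, SE 0.11, limma adjusted p = 0.000326), asparagine synthetase, Asns, which uses glutamine as its nitrogen donor (1.01, SE 0.12, adjusted p = 0.00178), and Aldh18a1, which starts proline synthesis from glutamate (0.94, SE 0.13, adjusted p = 0.00415). Gpt2, Asns and Psat1, all among the 5 that rose, are also in the list of amino acid response genes. With the block, 5 rose and 5 fell, beside 8.22% of all genes as higher and 1993 of the 19938 genes as lower. Without both arrays numbered 4, 5 rose and 3 fell, beside 6.34% of all genes as higher and 7.17% as lower. Of the 10 mesenchymal markers, 3 fell with the block, a fit that called 1993 genes as lower, and 2 fell when both arrays numbered 4 were left out, a fit that called 7.17% of all genes as lower.

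**Figure D4:**
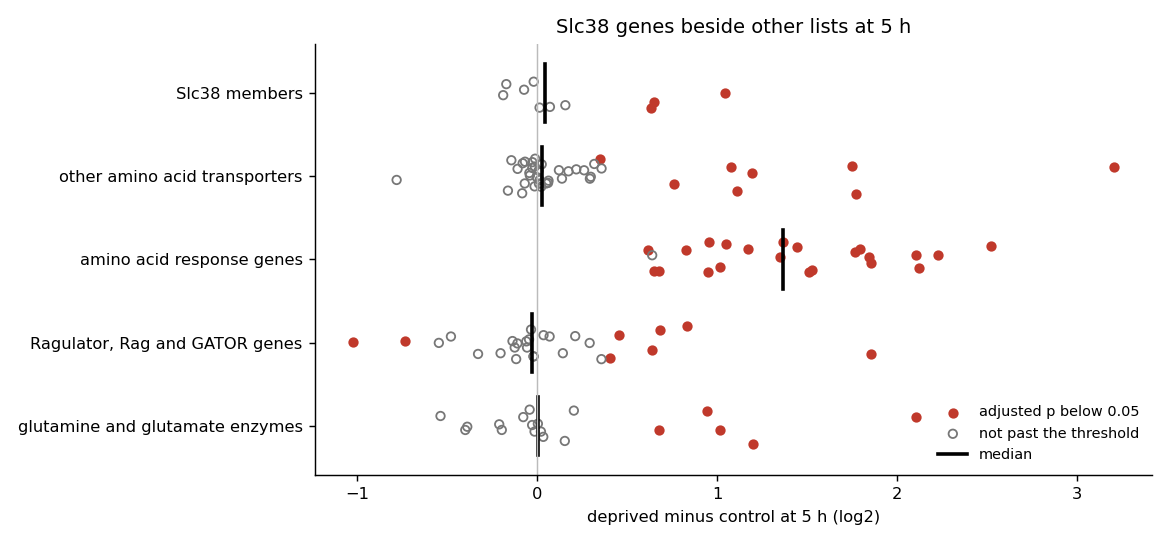
Deprived minus control at 5 h (log2, horizontal axis) for the 10 Slc38 genes and 4 other gene lists; each point is a gene (spread vertically for legibility), red where the adjusted p was below 0.05 and open where it was not, and black lines are medians. The medians were 0.04 for the Slc38 genes, 0.03 for other transporters, 1.37 for amino acid response genes, -0.03 for Ragulator, Rag and GATOR genes and 0.00 for glutamine and glutamate enzymes.

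For each Slc38 gene that rose, the 3 genes with the closest profile over the 16 arrays were taken among genes above the median level, by the root mean square difference of values centred on each gene's mean. For Slc38a1, whose own values had a root mean square of 0.33 about their mean, they were Ascc2 (0.11), the stress sensor Atf6 (0.11) and Rcc2 (0.11). For Slc38a2 (own value 0.33) they were Kdsr, an enzyme of sphingolipid synthesis (0.097), the transcription factor Klf11 (0.12) and Mdfic (0.12). For Slc38a7 (own value 0.49) they were the cytosolic tRNA synthetases Sars (0.12), Yars (0.13) and Cars (0.14), whose 5 h differences were 0.96, 1.04 and 1.32. The samples of these profiles include the 5 h arrays on which the 3 carriers were called.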

How the data were processed

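Per the labels' protocols, RNA from 16 samples of N25/2 cells (250 ng each) was amplified and hybridised to Affymetrix arrays. The deposited values are log2 signals that the authors made with RMA; limma is the other tool in the submitters' processing notes, and no version is named for either; background and summary settings are not given in the sources used here. The number of arrays limits the precision.

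Of 35556 array rows, 21789 had 1 gene symbol, 1621 several and 12146 none in the platform annotation. Symbols were updated through Entrez identifiers (21698 matched, 91 kept their symbol). The row with the highest mean was kept per gene, leaving 19938 genes. Groups follow the labels. limma 3.58.1 in R 4.3.3 (lmFit, eBayes, two-sided, Benjamini-Hochberg over all genes, threshold 0.05) compared 4 deprived with 4 control arrays at 5 h, the mean over 1, 2, 3 and 16 h with time as a factor, and the interaction of treatment with log2(hours) over 16 arrays. Each of these fits was run on simulated data with known changes, drawn with independent errors per array. A deviation shared by arrays of the same number was not simulated, so this run says nothing of its effect. Figures and tables used Python 3.11.15, numpy 2.4.6, pandas 2.3.3 and matplotlib 3.10.9.

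The labels do not say whether sample numbers pair the 5 h samples. Deviations of same-numbered arrays from their group means correlated by 0.35, 0.58, 0.47 and 0.90 for numbers 1 to 4. With the arrays numbered 4 left out, the correlations were 0.19, -0.0031 and -0.20 for numbers 1 to 3. What the numbers stand for is not given, so the fit without a block is reported and the block is an alternative.

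The members, lists, markers and motifs were chosen with earlier results of these data known. Up to 4 genes past the threshold with the largest difference were named per list, and 3 nearest profiles per called member. List genes without a named row are not reported here. Alternatives were other normalizations, filters, row choices, priors, array weights, the block and leaving arrays out. The block without both arrays numbered 4 and the renormalized single-time differences were chosen after seeing the data. Promoter windows are RefSeq's of GRCm38.p6.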

Additional observations from a re-analysis of the deposited data

Results flagged for a closer look

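At 5 h, 20 groups of 4 arrays (10 Slc38 genes, deprived and control) were checked for an array far from the others, and 3 had one. Chance gives about 1 in 20 for separate groups. These groups share the same arrays, so the count cannot be set against that rate. All 3 were arrays numbered 4: deprived array 4 was the lowest of its group for Slc38a11 (5.05), and control array 4 was the lowest for Slc38a1 (10.66) and the highest for Slc38a10 (9.91). Without both arrays numbered 4, Slc38a1 differed by 0.57 (limma adjusted p = 0.00018).

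The difference between deprived and control cells changed with the hours for Slc38a1 (slope 0.32 per doubling of hours) and Slc38a7 (slope 0.34) in the limma interaction test. Both calls were lost without the 16 h arrays, a fit that called 0.171% of all genes.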

How the results depend on the processing

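Slc38a1, Slc38a2 and Slc38a7 stayed past the threshold at 5 h in every alternative run, at 0.55 to 0.88 (adjusted p up to 0.0282), 0.62 to 0.67 (up to 0.00775) and 0.93 to 1.12 (up to 0.0138). With the replicate block their adjusted p was 9.4e-05, 2.8e-05 and 6.2e-06; over all genes the block called 3632 genes and leaving out both arrays numbered 4 called 2695, against 820. The block gave 13 other amino acid transporters higher and 1 lower, 6 Ragulator, Rag and GATOR genes lower and 5 glutamine and glutamate enzymes lower, and it called 3 mesenchymal markers lower; it changed no member's call and moved no other list count by over 1.5 times. Without both arrays numbered 4, 1 transporter, 5 Ragulator, Rag and GATOR genes and 3 glutamine and glutamate enzymes were lower. With array weights 6 members passed, adding Slc38a9 (0.30) as higher and Slc38a4 (-0.19) and Slc38a6 (-0.17) as lower, while 27.5% of all genes passed and Slc38a5 turned to -0.062. Members past the test for a trend numbered 1 with each array centred on its median (Slc38a7 at adjusted p = 0.0714), 1 with hours on a linear scale and 0 without the 16 h arrays. These fits called 1.86%, 5.15% and 0.171% of all genes, in this order. Among members not called, the sign turned with arrays left out for Slc38a3 (-0.11 to 0.055 leaving out 1 array, 0.018 without both numbered 4, with or without the block), Slc38a4 (-0.22 to 0.0077), Slc38a5 (-0.075 to 0.12) and Slc38a11 (-0.012 to 0.14), and with the second row for Slc38a9 (-0.078). The mean over 1, 2, 3 and 16 h turned for Slc38a3 (0.034) and Slc38a5 (-0.0067) without the 1 h arrays and for Slc38a5 (-0.032) without those of 3 h. Causes were not tested. Under the 2 renormalizations the single-time differences moved by less than 1 SD (pooled over the gene's 2 groups at 5 h), and the sign turned for Slc38a9 at 3 h (0.0062 as deposited, -0.0054 with centring) and Slc38a3 at 16 h (-0.013 as deposited, 0.0017 with quantile normalization), neither called. The test of genes above the median level covered 6 members.

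Only the 5 h groups had replicates, so differences at other times have no test of their own. The deposited values carry no background measure, and how far the 4 members of low signal (Slc38a3, Slc38a4, Slc38a5 and Slc38a11) lie above background is not known.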
